A study of Mus musculus with 564 samples.

Results

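The genes Il1a, Il1b and Il1rn encode the cytokines interleukin-1 alpha and interleukin-1 beta and the interleukin-1 receptor antagonist. Their cis-regulatory elements (CREs) were followed here by H3K27ac, the acetylation of lysine 27 of histone H3 that marks promoters and enhancers in use. A CRE was taken as a member where its centre lay within 25 kb of a RefSeq transcription start of 1 of these genes in the mouse genome build mm10. That rule uses position only and gave 27 of the 59190 CREs measured, of which 10 belonged to Il1a, 8 to Il1b and 9 to Il1rn. Each CRE is named by its gene and by the distance of its centre, in kb along the gene, from the reference start (chr2:129309972 for Il1a, chr2:129371139 for Il1b and chr2:24336860 for Il1rn). Il1a and Il1b are neighbours on the minus strand of chromosome 2, whereas Il1rn lies on the plus strand of the same chromosome, far outside the window of the other two genes.

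The cells were bone marrow-derived macrophages (BMDMs), primary macrophages grown from the marrow of wild type mice; the study describes them as young adult male C57/BL6 animals. They received vehicle (DMSO) or 1 of 58 clinical kinase inhibitors (CKIs) for 1 h, each CKI at a dose of its own, and were then stimulated with lipopolysaccharide (LPS) or interleukin-4 (IL-4), both at 10 ng/mL, for 30 min, 1 h, 2 h or 4 h. Unstimulated (UT) libraries carry a 4 h label and time 0 in their titles, and they served as the start of both time courses. In all, 564 ChIP-seq libraries were used, of which 249 followed LPS, 240 followed IL-4 and 75 were UT. DMSO had 9 groups of 2 libraries, while 474 CKI groups held 1 library and 36 held 2. The labels do not say whether the libraries of a group came from separate cultures, so p-values measure the spread between these libraries, which may be technical.

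Interleukin-1 alpha and beta bind the same receptor, which signals through MYD88 and IRAK kinases to NF-kappaB and MAP kinases, and the receptor antagonist occupies that receptor without signaling. Interleukin-1 beta is made as an inactive precursor that is cut by caspase-1 in the inflammasome, whereas the precursor of interleukin-1 alpha is already active. LPS, a component of bacterial outer membranes, is sensed by TLR4 and is a classical inducer of all 3 genes in macrophages, and IL-4 acts through STAT6 and drives the alternative activation state of macrophages.

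The DNA at the centre of the CREs is shown for the elements to which the results return, with each central 300 bases read along the strand of its gene from RefSeq's GRCm38.p6, the assembly of mm10. Capitals mark matches on either strand to kappaB (the NF-kappaB consensus), AP-1 (TGANTCA), PU.1 (GAGGAAG) and STAT6 (TTCNNNNGAA). Il1a-20.8kb, at chr2:129330640-129330939, and Il1rn-1.4kb, at chr2:24335323-24335622, are CREs with kappaB matches and opposite timing after LPS. In Il1a-20.8kb the first run of capitals is a near-palindrome matched as kappaB on both strands, and the second is PU.1.

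Il1a-20.8kb: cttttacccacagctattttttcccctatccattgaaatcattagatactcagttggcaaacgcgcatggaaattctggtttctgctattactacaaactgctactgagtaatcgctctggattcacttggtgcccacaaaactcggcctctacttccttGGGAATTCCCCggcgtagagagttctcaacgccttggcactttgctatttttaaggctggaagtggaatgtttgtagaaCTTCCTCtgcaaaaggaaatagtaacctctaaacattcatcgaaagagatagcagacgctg

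Il1rn-1.4kb: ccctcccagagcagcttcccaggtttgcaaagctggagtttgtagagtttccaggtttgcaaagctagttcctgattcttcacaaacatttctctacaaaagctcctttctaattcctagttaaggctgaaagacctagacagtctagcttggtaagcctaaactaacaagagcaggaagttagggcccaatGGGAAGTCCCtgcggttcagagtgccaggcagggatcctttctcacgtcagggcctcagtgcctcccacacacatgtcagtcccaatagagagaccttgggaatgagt

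Il1b-9.7kb, at chr2:129380667-129380966, had the highest UT value of the 27 CREs and also holds a kappaB match. Il1a-10.2kb, at chr2:129320069-129320368, had the largest rise of the members after IL-4 and is the only member whose central window holds a STAT6 match, shown after an AP-1 match. Il1b-14.4kb, at chr2:129385358-129385657, kept its rise after IL-4 through 4 h, and the capitals in it mark AP-1. Outside the central windows STAT6 matches lay in other members too. Over the whole CRE, Il1b-14.4kb and Il1rn+8.9kb held 2 and Il1b+10.6kb held 1. Il1rn-1.4kb, not called after IL-4, held 2, and Il1rn+4.8kb, which was called, held 0.

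Il1b-9.7kb: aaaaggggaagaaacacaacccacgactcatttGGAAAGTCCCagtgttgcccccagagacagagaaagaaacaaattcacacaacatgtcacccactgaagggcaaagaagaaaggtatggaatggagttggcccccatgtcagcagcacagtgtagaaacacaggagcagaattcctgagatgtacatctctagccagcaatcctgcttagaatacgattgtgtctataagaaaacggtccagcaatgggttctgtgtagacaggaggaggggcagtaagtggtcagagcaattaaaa

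Il1a-10.2kb: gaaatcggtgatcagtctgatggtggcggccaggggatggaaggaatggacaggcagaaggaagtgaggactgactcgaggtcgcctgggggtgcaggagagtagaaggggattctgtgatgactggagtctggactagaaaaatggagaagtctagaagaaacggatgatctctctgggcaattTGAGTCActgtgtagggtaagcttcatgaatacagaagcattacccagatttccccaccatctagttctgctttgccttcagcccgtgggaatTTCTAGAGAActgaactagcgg

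Il1b-14.4kb: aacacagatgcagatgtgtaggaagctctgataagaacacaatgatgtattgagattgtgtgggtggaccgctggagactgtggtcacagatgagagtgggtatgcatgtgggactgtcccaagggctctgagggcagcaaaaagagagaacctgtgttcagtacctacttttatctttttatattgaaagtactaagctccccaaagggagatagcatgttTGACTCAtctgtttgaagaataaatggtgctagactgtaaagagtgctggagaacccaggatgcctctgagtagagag

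Across the 27 central windows, 5 held kappaB, 6 held AP-1, 8 held PU.1, 4 held C/EBP (TTGCNNAA), 1 held STAT6 and 1 held IRF (GAAANNGAAA). The same motifs were found in 5.98%, 20.2%, 23.4%, 14.7%, 9.21% and 5.13% of the central windows of all 59190 CREs. The kappaB windows not printed were Il1a-23.8kb and Il1rn+22.7kb. A match is one of letters only, and binding was not measured.

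Library quality set the precision of what follows. The normalized read counts of a library summed to between 4066894 and 12391409. From the even spacing of the values, the reads behind a library's CREs could be estimated for 547 libraries and ranged from 172721 to 6581860. The contrast, which divides the median of the 10% of CREs with the highest mean values by that of the lowest 10%, was 53.0 to 134 in the DMSO libraries and 3.34 to 67.2 in the CKI libraries. The promoter CREs of 8 of 8 macrophage marker genes had UT means of 226 to 2082, against a median of 36.5 over all CREs. Markers of T cells, B cells and mast cells had no promoter CRE. A promoter CRE was present for 1 of 4 markers of neutrophils and precursors, 1 of 3 of dendritic cells and 2 of 3 of fibroblasts. Their UT means were 3.5 to 12.5.

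To ask how LPS changed the acetylation of these CREs, the DMSO libraries at each time were compared with the UT libraries. LPS raised H3K27ac at 26 of the 27 CREs, in all 3 genes, and lowered it at none, beside calls at 53.5% of the 50697 CREs tested in the table. The exception was Il1rn+30.7kb, which holds the transcription start of the neighbouring gene Psd4 (log2 difference -0.72 ± 0.26 (SE) at 30 min, adjusted p = 0.010 by limma). A call needed limma's moderated F test over the 4 times to give an adjusted p under 0.01, with a log2 difference larger than 1 in size. Of all CREs tested, 14678 were called higher. More cells carrying the mark and more mark per cell cannot be told apart in such data. At its most changed time, the median CRE differed by 4.24 on the log2 scale for Il1a, 2.90 for Il1b and 2.93 for Il1rn, beside 0.37 over all CREs tested.

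The CRE at the Il1a transcription start, Il1a-0.9kb (chr2:129309144-129312657), read 24 and 29 in the UT libraries. After LPS it read 317 and 378 at 30 min, 408 and 405 at 1 h, 514 and 487 at 2 h, and 349 and 288 at 4 h. Every LPS library thus lay above both UT libraries, and the difference was largest at 2 h (log2 difference 4.01 ± 0.15). The largest LPS change of all members was at Il1a-6.8kb (chr2:129315167-129318376), upstream of the gene, where a transcription start of Gm25703 is annotated. It rose from 12 and 5 to 445 and 398 at 2 h (log2 difference 5.03 ± 0.19, adjusted p = 2.8e-22). Il1a-10.2kb, between the genes, was instead highest at 30 min, with 581 and 639 from UT values of 15 and 31.

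The CREs of Il1a did not all belong to that gene alone. Il1a+12.5kb holds the start of Ckap2l, a gene for a mitotic spindle protein, and was already at 203 and 251 in the UT libraries. It read 533 and 517 after 30 min of LPS and 288 and 290 at 1 h, and was at 186 and 179 by 4 h. The other 9 Il1a CREs had UT means of 3.5 to 26.5.

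Of the 8 Il1b CREs, 4 were already well marked before the stimulus, with UT means of 71.0 to 274. The start CRE Il1b+3.8kb (chr2:129362501-129372217) spans the whole gene and also the start of the antisense transcript Il1bos, and ChIP-seq cannot assign its signal to either strand. It read 135 and 102 in the UT libraries and 698 and 913 after 30 min of LPS. It then stayed high, with 774 and 775 at 1 h, 778 and 743 at 2 h and 643 and 576 at 4 h (log2 difference 2.71 ± 0.13 at 30 min, adjusted p = 7.4e-20). The groups did not overlap at any of the 4 times.

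Upstream of the gene, Il1b-2.3kb read 186 and 162 in the UT libraries and 927 and 973 after 30 min of LPS. Il1b-9.7kb, the member with the highest UT mean, read 274 in both UT libraries and 947 and 1042 after 30 min of LPS. The largest log2 difference of an Il1b CRE was at Il1b-18.9kb (chr2:129389202-129390831), which rose from 13 and 9 to 285 and 238 at 1 h (4.06 ± 0.22). The other distal CREs, Il1b-14.4kb, Il1b-16.8kb and Il1b-22.6kb, rose by 3.09 to 3.49 on the log2 scale at 1 h.

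For Il1rn, the start CRE Il1rn+8.9kb (chr2:24344386-24347221) holds 2 of the 3 curated starts of the gene, and the third lies upstream, outside any member CRE. It read 152 and 154 in the UT libraries. After LPS it climbed through 584 and 681 at 30 min, 760 and 727 at 1 h, 1020 and 1070 at 2 h, and 1287 and 1121 at 4 h. The difference from UT was 2.93 ± 0.11 on the log2 scale at 4 h (adjusted p = 7.4e-22). The largest log2 difference was at Il1rn+22.7kb, downstream of the gene, which rose from 12 and 6 to 199 and 200 at 2 h (3.90 ± 0.22).

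**Figure D1:**
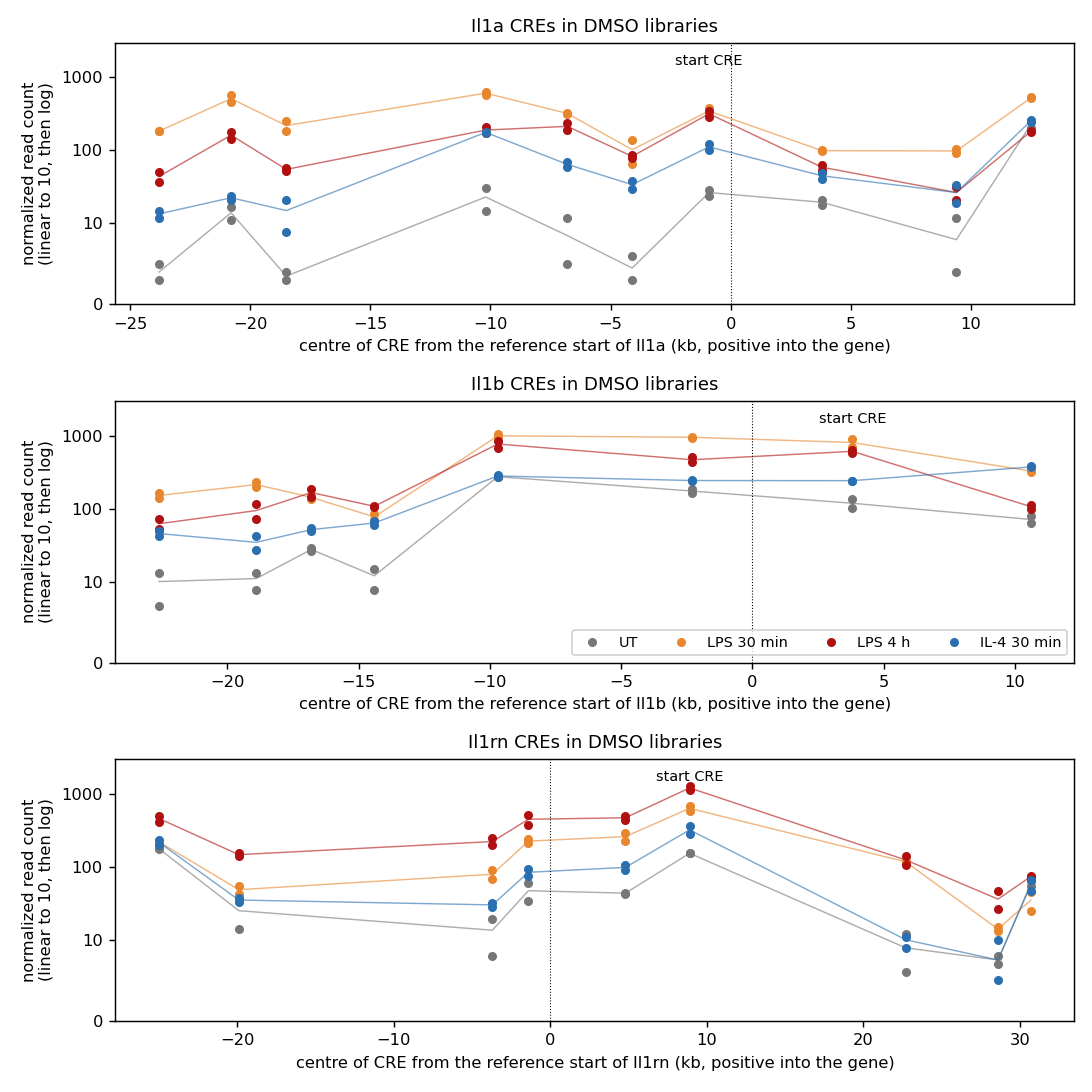
Normalized read count of H3K27ac (vertical axis, linear up to 10 and logarithmic above) at each member CRE, placed by the distance of its centre from the reference start of its gene in kb (horizontal axis), in the DMSO libraries; points are single libraries and lines join the means of 2 libraries. LPS at 30 min lies above UT at all CREs but Il1rn+30.7kb, and LPS at 4 h lies below LPS at 30 min over most of Il1a and Il1b and above it over most of Il1rn.

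The time of the largest LPS difference differed between the genes. It was 30 min for 7 of 10 Il1a CREs and 2 h for the other 3, and it was 30 min for 4 and 1 h for 4 of the 8 Il1b CREs. For Il1rn it was 4 h for 7 of 9 CREs. To test this, the 4 h libraries were compared with the 30 min libraries, a contrast chosen after the time courses had been seen. At 4 h, 8 of 10 Il1a CREs and 6 of 8 Il1b CREs were lower than at 30 min and none was higher, whereas 8 of 9 Il1rn CREs were higher and none was lower (adjusted p under 0.05 by limma). The 8 include Il1rn+30.7kb, which holds the Psd4 start and was not called against UT. It read 64 and 54 in UT, 25 and 45 at 30 min and 75 and 72 at 4 h. Over all CREs tested, 21.2% were lower and 24.3% higher.

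Among the CREs that fell back most were Il1a-23.8kb (log2 difference, 4 h minus 30 min, -1.96 ± 0.24), Il1a-10.2kb (-1.66 ± 0.18) and Il1b+10.6kb (-1.58 ± 0.17). The largest later rises were at Il1rn-19.9kb (1.51 ± 0.28) and Il1rn-3.7kb (1.43 ± 0.23). Il1rn-25.0kb, the member farthest upstream of Il1rn, read 213 and 225 at 30 min and 501 and 415 at 4 h, from UT values of 175 and 178. The start CREs of Il1a (-0.12 ± 0.15, adjusted p = 0.54) and Il1b (-0.39 ± 0.13, adjusted p = 0.014) changed less than that of Il1rn (0.92 ± 0.11, adjusted p = 8.5e-09). The call at Il1b+3.8kb was lost without the second 30 min library or the second 4 h library (-0.20 and -0.31), and so was that of Il1a-6.8kb (-0.54 and -0.44).

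**Figure D2:**
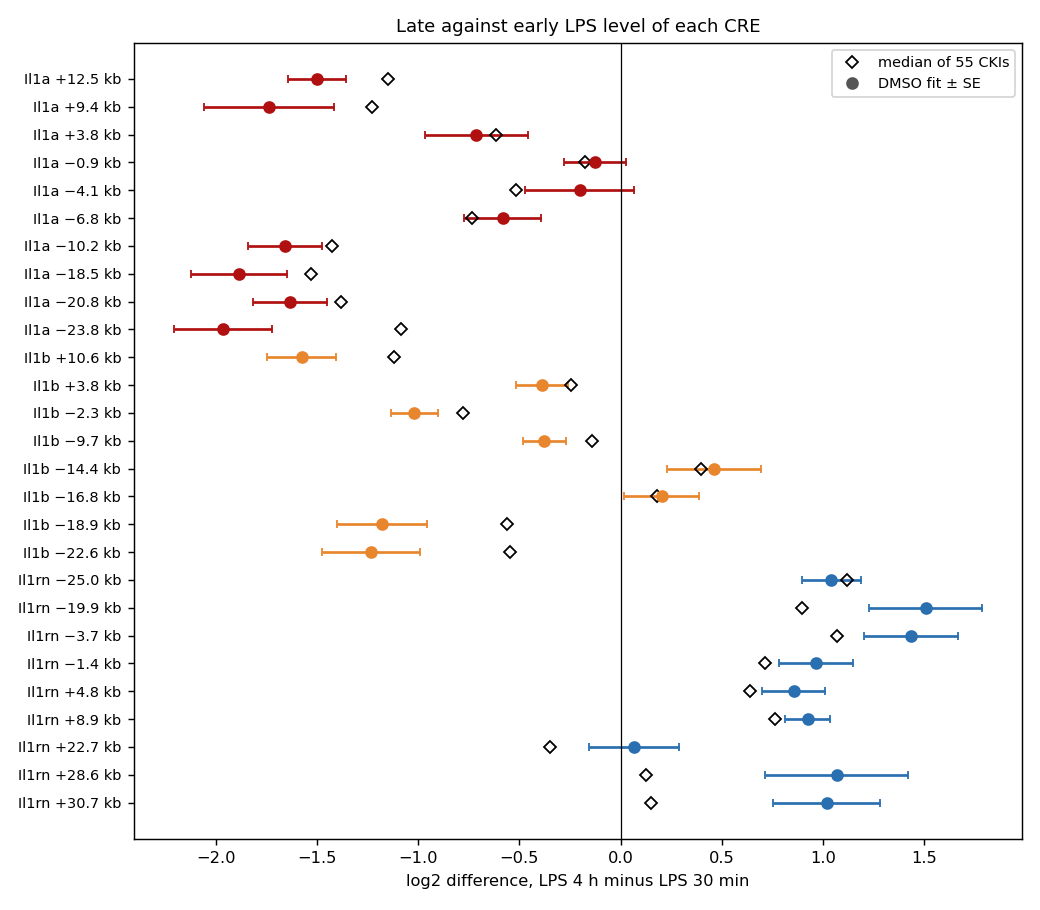
Log2 difference of H3K27ac between 4 h and 30 min of LPS in the DMSO libraries (horizontal axis) for each member CRE (vertical axis), with bars of 1 standard error from limma; open diamonds are the medians of 55 CKIs. In DMSO all Il1a CREs and all Il1b CREs but Il1b-14.4kb and Il1b-16.8kb lie left of 0, down to -1.96, and the Il1rn CREs lie right of 0, up to 1.51.

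The CKI libraries gave the same measurement in samples that the DMSO contrast did not use. Of the 55 CKIs with LPS libraries at both times, 45 to 55 had a lower value at 4 h than at 30 min at each of the Il1a and Il1b CREs called lower in DMSO, except Il1b-9.7kb with 34. The Il1a start was lower in 37 and higher in 18. In contrast, 51 to 55 had a higher value at 6 of the 8 Il1rn CREs called higher in DMSO. The other members of that set, Il1rn+28.6kb and Il1rn+30.7kb, were higher in 33 and 32 CKIs and lower in 21 and 23. For the median CRE of the whole table, 29 of 55 CKIs were lower at 4 h. Il1rn+22.7kb, which was not called in DMSO (0.07 ± 0.22), was lower in 38 of 55 CKIs.

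The balance between the start CREs of the antagonist and of the cytokines moved accordingly. In DMSO, the log2 ratio of Il1rn+8.9kb to Il1b+3.8kb was -0.26 and -0.42 at 30 min of LPS, -0.03 and -0.09 at 1 h, 0.39 and 0.52 at 2 h, and 1.00 and 0.95 at 4 h. The ratio to Il1a-0.9kb went from 0.87 and 0.84 at 30 min to 1.87 and 1.94 at 4 h. In the UT libraries the ratios were 0.17 and 0.57 to Il1b+3.8kb and 2.44 and 2.23 to Il1a-0.9kb. Both ratios were thus lower at 30 min of LPS than in UT, and that to Il1a-0.9kb was still below its UT values at 4 h. Ratios here are of whole CREs of unequal length, so only their change over time can be read. Between 30 min and 4 h the ratio to Il1a rose in 55 of 55 CKIs, with a median rise of 1.07 on the log2 scale, and the ratio to Il1b rose in 54 of 55, with a median of 0.97.

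Per kb of CRE, Il1rn+8.9kb was the highest of the start CREs at every time in DMSO, UT included. After 4 h of LPS, its level was 425 normalized reads per kb, against 90.6 for Il1a-0.9kb and 62.7 for Il1b+3.8kb, whose length of 9717 bp takes in the gene body. The highest level of any member was that of Il1b-2.3kb after 30 min of LPS, with 533 normalized reads per kb.

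**Figure D3:**
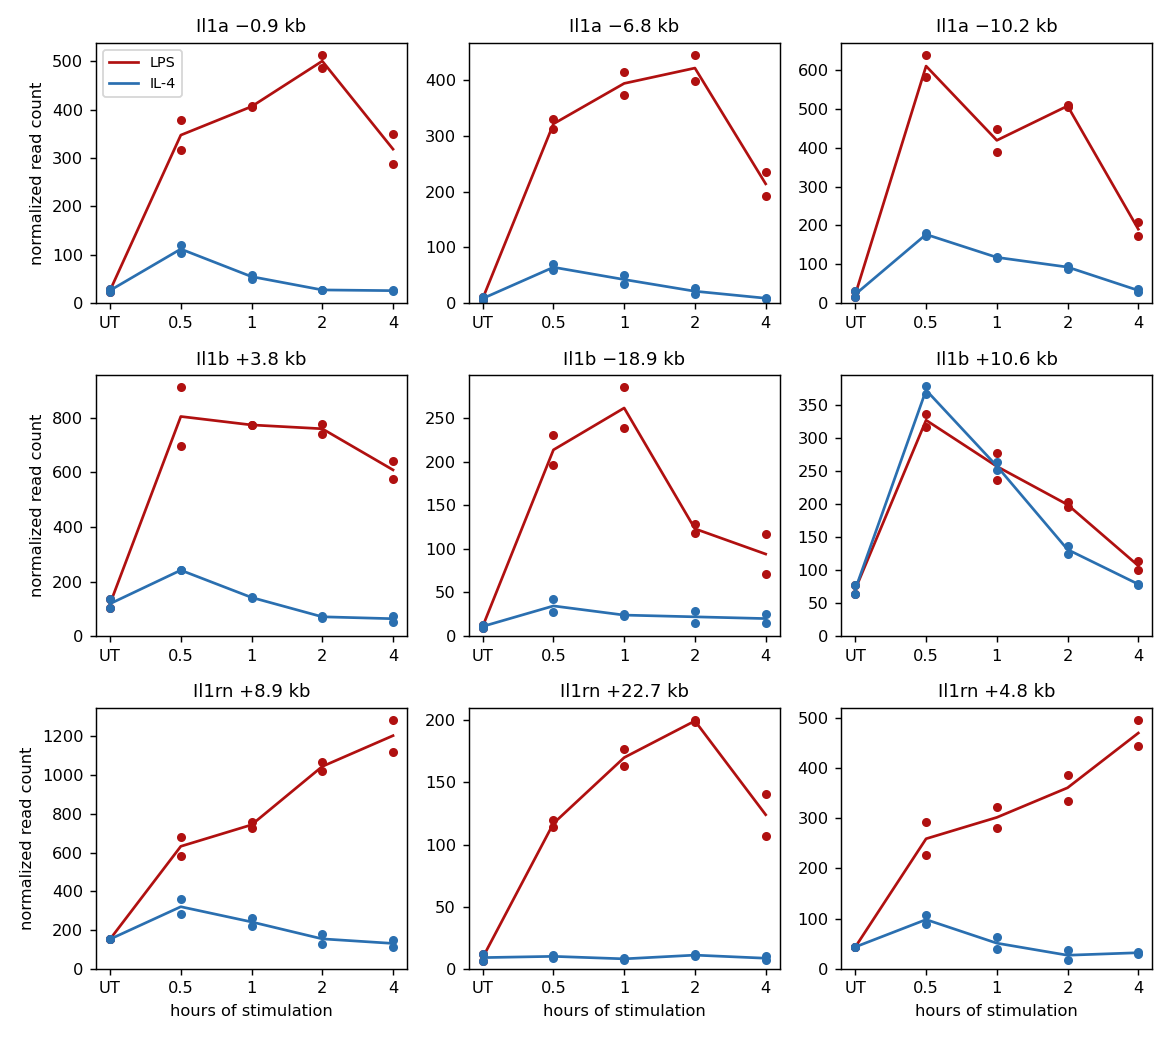
Normalized read count of H3K27ac (vertical axis) against time after the stimulus in h (horizontal axis) at the start CRE of each gene and at the CREs with the largest LPS and IL-4 differences, in the DMSO libraries; points are single libraries and lines join the means of 2 libraries. LPS values of Il1rn+8.9kb reach 1287 and 1121 at 4 h, LPS values of Il1a-10.2kb and Il1b+10.6kb are highest at 30 min, and so are the called IL-4 values.

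The IL-4 time course asked whether the stimulus of alternative activation reaches the same CREs. It raised 10 of the 23 member CREs that passed the filter on low values and lowered 2, and in most cases the rise was brief. The 4 CREs not tested, with means under 10, were Il1a-18.5kb, Il1a-23.8kb, Il1rn+22.7kb and Il1rn+28.6kb. Among the 47018 CREs tested in all, 24.7% were called by the same rule, and the UT libraries are shared with the LPS comparison. The calls fell on 5 Il1a, 5 Il1b and 2 Il1rn CREs.

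At the Il1a start, IL-4 gave 121 and 103 at 30 min, 51 and 59 at 1 h, 27 and 28 at 2 h, and 25 and 27 at 4 h, from UT values of 24 and 29. The early values lay far above UT (log2 difference 1.89 ± 0.26, adjusted p = 4.1e-09) and the late values were at the UT level. Il1a-10.2kb had the largest rise, from 15 and 31 to 173 and 181 at 30 min (2.76 ± 0.23), and was still at 89 and 97 at 2 h. Il1a-6.8kb reached 70 and 59 at 30 min. In contrast, Il1a-20.8kb, which reached 457 and 568 after 30 min of LPS, read 24 and 21 after 30 min of IL-4.

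Among the Il1b CREs, Il1b+10.6kb, downstream of the gene, responded alike to both stimuli at 30 min, with 366 and 379 after IL-4 and 317 and 337 after LPS, from 78 and 64 in the UT libraries. It was one of 2 members with no call between LPS and IL-4 (largest log2 difference 0.59 ± 0.16, at 2 h). Il1b-14.4kb stood apart for its duration, since it rose from 15 and 9 to 68 and 59 at 30 min and read 77 and 73, 61 and 67, and 66 and 72 at the later times. Its log2 difference from UT was between 2.03 and 2.26 at all 4 times (adjusted p = 3.0e-11).

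IL-4 lowered Il1b-2.3kb at the later times. This CRE read 186 and 162 in the UT libraries, 247 and 238 at 30 min, and then 52 and 65 at 2 h and 66 and 56 at 4 h (log2 difference -1.50 ± 0.17 at 2 h, adjusted p = 4.9e-15). The start CRE Il1b+3.8kb rose from 135 and 102 to 241 and 242 at 30 min and read 52 and 75 at 4 h, a log2 difference of 1.01 ± 0.18 followed by -0.86 ± 0.18. The other CRE counted as lower, Il1a+3.8kb in an exon, went from 21 and 18 to 41 and 49 at 30 min and to 7 and 6 at 4 h. Its log2 difference was thus 1.03 ± 0.33 early and -1.09 ± 0.33 late.

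Il1rn responded least to IL-4 by its count of calls. Its start CRE rose from 152 and 154 to 359 and 282 at 30 min (log2 difference 1.03 ± 0.15) and Il1rn+4.8kb, in an intron, from 44 and 43 to 107 and 89 (1.08 ± 0.28). Both calls, and the call at Il1b+3.8kb, lay close to the threshold and were lost with a pseudocount of 20 or with quantile normalization, where the log2 differences were between 0.89 and 0.97. Without the first IL-4 library of 30 min, the calls at Il1rn+8.9kb (0.86) and Il1rn+4.8kb (0.95) were lost as well.

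A direct comparison of the stimuli at equal times called 25 of the 27 CREs, all higher after LPS, beside 58.4% of the 50587 CREs tested in the table. The difference was largest at Il1rn-3.7kb at 4 h (4.23 ± 0.33), at Il1a-20.8kb at 30 min (4.23 ± 0.24) and at Il1a-6.8kb at 2 h (4.04 ± 0.24). At the start CREs it was 3.96 ± 0.18 for Il1a and 3.34 ± 0.15 for Il1b at 2 h, and 3.16 ± 0.14 for Il1rn at 4 h.

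Most pairs of CREs of the same gene moved together over the 18 DMSO libraries. The median Pearson correlation between CREs of 1 gene, on log2 values, was 0.91 over 45 pairs for Il1a, 0.88 over 28 pairs for Il1b and 0.84 over 36 pairs for Il1rn, and the lowest values were 0.45, 0.38 and -0.22. These are descriptions, since the points share libraries and stimuli. Correlations between CREs of different member genes are not given, so the values do not show a pattern particular to 1 gene. Among about 10390 promoter CREs more than 100 kb away, the pattern of the Il1a start was most like those of Bcl2a1d (r = 0.99) and Bcl2a1b (r = 0.98), which encode BCL2-related survival proteins, Gpr84, Pde4b and Zfp719 (r = 0.97 to 0.98). The Bcl2a1 genes are near-identical copies, so the split of reads between them is uncertain.

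For Il1b the closest promoters were Acod1 (r = 0.98), whose product makes itaconate in activated macrophages, Bcl2a1d, Clec4e, Zfp719 and Gpr84, with r of at least 0.97. For Il1rn they were Olfr433, Casp4, Cxcl10, Bcl2a1d and Ifi205, with r of 0.97 to 0.98. Casp4 encodes the caspase that senses intracellular LPS, Cxcl10 an interferon-inducible chemokine and Ifi205 an interferon-inducible DNA-binding protein.

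Other genes of the interleukin-1 system were read at their promoter CREs from a list of 39 genes, of which 33 had a promoter CRE. LPS raised 13 of them and lowered 7, a share called of 60.6% beside the 53.5% of all CREs. Of the 8 genes for processing and release, 3 rose and 2 fell. Casp4 rose by 2.35 ± 0.12 on the log2 scale, Casp1 by 1.36 ± 0.10 and Aim2, a DNA sensor of inflammasomes, by 1.32 ± 0.13, while Pycard, the inflammasome adaptor, fell by 1.67 ± 0.17 and Txnip by 1.32 ± 0.11. Both other ligands with a promoter CRE rose, namely Il18 (2.08 ± 0.09) and the alarmin gene Il33 (1.81 ± 0.38), the latter from a UT mean of 7. The genes of the interleukin-36 group and Il1f10 had none.

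Of the 7 receptor promoters, 4 fell and 1 rose after LPS. The falls were at Il1rl1, the receptor of interleukin-33 (-2.51 ± 0.25), Il1r1, the signaling receptor of interleukin-1 (-1.70 ± 0.31), Il1r2, the decoy receptor (-1.21 ± 0.32), and Il1rl2, the receptor of interleukin-36 (-1.03 ± 0.30). The rise was at Il18rap, a chain of the interleukin-18 receptor (1.28 ± 0.20). Among the 16 signaling genes 7 rose and 1 fell, with the largest rise at Tnfaip3, a brake on NF-kappaB signaling (2.25 ± 0.10), and the fall at Tab1 (-1.29 ± 0.15). The median log2 difference of the list was 0.75, beside 0.37 over all CREs.

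After IL-4, 4 of 32 promoters tested rose and none fell, a share called of 12.5% beside the 24.7% of all CREs. They were Il1rl2 (1.97 ± 0.18), Il18rap (1.37 ± 0.17), the co-receptor gene Il1rap (1.33 ± 0.18) and Tnfaip3 (1.15 ± 0.12). Pycard (-0.22 ± 0.13) and Il1r1 (0.65 ± 0.23) were not called after IL-4. Il1rl1 was at 0.72 ± 0.13 (adjusted p = 2.7e-05 by limma's F test) and did not pass the threshold of size.

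The CKI libraries asked which kinases' inhibition alters acetylation at these CREs. At the start CREs the LPS libraries of every CKI lay on average above its UT level. Most CKI libraries departed from DMSO in a way shared by nearly all compounds. In the UT libraries, Il1a-0.9kb read 23 to 192 with a median of 67 over 73 CKI libraries, and 72 of these lay above both DMSO libraries (24 and 29). At 2 h of LPS the order was opposite, with 116 to 446 in the CKI libraries and all 59 below both DMSO libraries (514 and 487). LPS libraries minus the UT library was above 0 in 58 of 58 CKIs at all 3 start CREs, and below the DMSO value in 58 CKIs for Il1a, 57 for Il1b and 57 for Il1rn. The lowest CKI values on the log2 scale were 0.56 for Il1a, 0.58 for Il1b and 0.67 for Il1rn, against 3.64, 2.59 and 2.48 in DMSO.

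**Figure D4:**
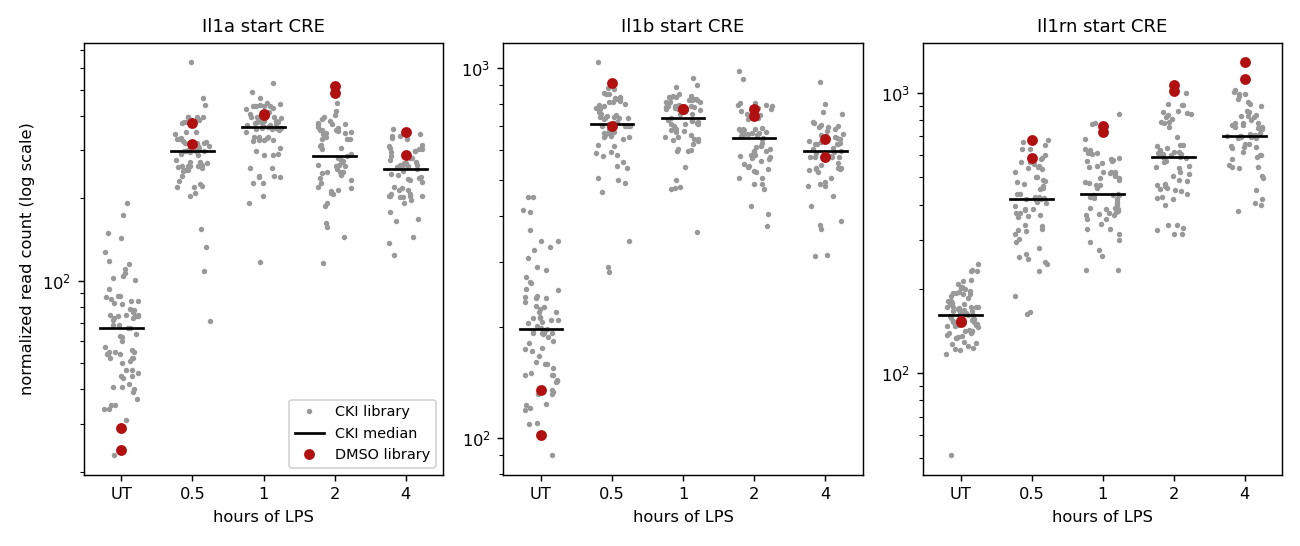
Normalized read count of H3K27ac (vertical axis, logarithmic) at the 3 start CREs in the UT and LPS libraries, by hours of LPS (horizontal axis); grey points are CKI libraries, black bars their medians and red points the DMSO libraries. In the UT condition 72 of 73 CKI libraries lie above both DMSO libraries at the Il1a start, and at 4 h of LPS all 57 lie below both at the Il1rn start.

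The Il1rn start was the most uniformly reduced. After 4 h of LPS it read 380 to 1021, with a median of 704, in 57 CKI libraries, all below the DMSO libraries (1287 and 1121). At 2 h all 59 CKI libraries were below both DMSO libraries as well. The Il1b start overlapped DMSO, with a median of 596 at 4 h of LPS over the CKI libraries and 643 and 576 in DMSO. After IL-4 the same CRE read 92 to 556 at 4 h in the CKI libraries, all 55 above DMSO (52 and 75).

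Each CKI was compared with DMSO by limma, as a difference averaged over the UT and LPS libraries, and a call for a pair of CRE and CKI needed an adjusted p under 0.05 with a log2 difference larger than 0.5 in size. Of the 1566 member pairs 289 were called, 235 of them lower, a share of 18.5% beside 36.4% of all pairs. Of all pairs, 4.04% were called lower. They were most frequent at Il1b-2.3kb (43 of 58 CKIs), Il1rn+8.9kb (43), Il1b-9.7kb (37) and Il1rn-25.0kb (30), and rare at Il1a-0.9kb (3) and Il1b+3.8kb (1). At Il1a-0.9kb and Il1b+3.8kb the average joins differences of opposite sign. In UT, 72 and 62 of 73 CKI libraries lay above both DMSO libraries, and at 2 h of LPS 59 and 45 of 59 lay below both. Few calls there thus do not show that CKIs left the LPS level unchanged. Il1rn+28.6kb was higher in 37 CKIs, and its DMSO values were 7 to 46. From the LPS libraries alone 442 pairs were called, and with quantile normalization 110.

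The contrast between strong and weak CREs, which is lower in CKI than in DMSO libraries, moved with these differences. Across the 58 CKIs, the difference at Il1rn+8.9kb had a Pearson r of 0.56 with the median contrast of the CKI's libraries, while r was -0.03 at Il1a-0.9kb and -0.12 at Il1b+3.8kb. After IL-4, 593 member pairs were called, 579 of them higher, a share of 37.9% beside 39.2% of all pairs, and r with contrast was -0.86 at Il1a-0.9kb and -0.84 at Il1b+3.8kb. The part of contrast in the CKI results was not tested, and the CKIs as a whole and the DMSO libraries cannot be told apart from it.

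The CKI columns of the table fall into 6 runs of compounds, so each CKI was also set against the other CKIs of its run. The call count fell to 21 of 1566 pairs after LPS, 20 of them lower, a share of 1.34% beside 1.15% of all pairs. They came from PH797804 and 3 other CKIs, namely Pimasertib, BGT226 and Mubritinib. After IL-4 18 pairs were called, 15 of them higher, 1.15% beside 1.25% of all pairs.

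The LPS induction itself, stimulated minus UT, was compared with that of DMSO as well. It was smaller in 161 and larger in 1 of 1566 member pairs, a share of 10.3% beside 0.631% of all pairs and 2.21% of pairs of CREs that LPS raised in DMSO. The median change was -0.99 for the members and -0.55 for the raised CREs. Il1a-6.8kb was called in 29 CKIs, Il1a-0.9kb in 20 and Il1a-10.2kb in 16, against 11 for Il1b+3.8kb and 4 for Il1rn+8.9kb. Contrast moved with this too (r = 0.66 at Il1a-0.9kb), 6 pairs were called with quantile normalization, and 13 pairs were called within runs. Without the first or the second DMSO replicate 82 and 56 pairs were called. For the IL-4 induction 8 member pairs were called, a share of 0.511% beside 0.314% of all pairs.

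Of single CKIs at the start CREs, PH797804, a p38 inhibitor, was lowest at Il1rn+8.9kb. In its libraries this CRE read 172 in UT and 165, 261, 337 and 404 at 30 min, 1 h, 2 h and 4 h of LPS, against 1287 and 1121 in DMSO at 4 h. The log2 difference from DMSO was -1.28 ± 0.19 (adjusted p = 4.8e-09), and -0.94 from its run (adjusted p = 1.4e-06). Its 30 min LPS library was the shallowest of the estimated libraries, with about 172721 reads, and without it the difference was -1.14. The contrast of its LPS libraries was 3.37 to 10.3, below the median of 35.1 in its run, and the part of this in the result was not tested. The next lowest were AZD2014, an mTOR inhibitor (-1.002 ± 0.19), and Bafetinib, which the study used against MAPKAPK3 (-0.97 ± 0.19), and neither was called within its run (-0.24 and -0.34). The highest were XL413 (-0.04), MK2206 (-0.05) and GSK461364 (-0.17).

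Mubritinib, described as a HER2 inhibitor, was lowest at Il1b+3.8kb. The CRE read 462, 362, 403 and 310 over the LPS times in its libraries, all below the DMSO libraries of the same time, and 142 in UT. The log2 difference was -0.69 ± 0.17 from DMSO (adjusted p = 0.0014) and -0.76 from its run (adjusted p = 9.7e-04), and with quantile normalization it was -0.34 and not called. BGT226 (-0.43 ± 0.17) and Afatinib (-0.35 ± 0.15) followed and did not pass the threshold of size. The highest were Talmapimod (0.44), Silmitasertib (0.40) and Apitolisib (0.39), and none was called. Their UT libraries, which enter these averages, read 448 (Talmapimod), 197 and 410 (Silmitasertib), and 413 and 228 (Apitolisib), against 135 and 102 in DMSO.

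At Il1a-0.9kb PH797804 (-0.73 ± 0.23), Mubritinib (-0.71 ± 0.23) and Afatinib (-0.58 ± 0.20) were called lower than DMSO, with adjusted p of 0.0040, 0.013 and 0.0072. The first was at -0.40 and not called without the shallow library. Mubritinib read 204, 117, 247 and 208 over the LPS times and lost its call with quantile normalization (-0.60), and without the second DMSO replicate or with a replicate block (-0.70 in both). Afatinib was not called within its run (-0.48), against the mean of the 58 CKIs (-0.48), with quantile normalization (-0.37) or without its libraries of suffix b (-0.41). Talmapimod (0.52), OSI930 (0.25) and MK2461 (0.24) were highest and were not called. Their UT libraries, which enter these averages, read 192, 78 and 75, against 24 and 29 in DMSO. With the LPS libraries only, 11 of 26 named pairs at Il1a-0.9kb changed sign. IMD0354, used against IKK2, a kinase that activates NF-kappaB, was at 0.01 ± 0.21 for Il1a, 0.09 ± 0.16 for Il1b and -0.40 ± 0.17 for Il1rn. Tanzisertib, a JNK inhibitor, was at 0.10 ± 0.23, 0.30 ± 0.17 and -0.56 ± 0.19, and the last of these was called against DMSO and was at 0.11 from its run.

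Inhibitors were also grouped by the kinases they target and compared with all other CKIs within runs, with 1 value per CKI. The families follow the kinase class each compound is best known for, which is not always the kinase it was dosed for in the study (Apitolisib for JAK1 and AZD2014 for PFKP, for example). Doses differed between CKIs, so the values of single compounds, here and in the order of lowest and highest, stand side by side and no difference between compounds was tested. After LPS, the 4 p38 inhibitors were lower than the 54 other CKIs at Il1rn+8.9kb (family mean -0.77, others -0.57, difference within runs -0.34 ± 0.10, adjusted p = 0.033). This was 1 of 27 member CREs, beside 10.4% of all CREs. The 4 values were -1.28 for PH797804, -0.85 for Losmapimod, -0.58 for Talmapimod and -0.38 for VX702, and without PH797804 the difference was -0.15 and not called. At Il1a-0.9kb the family difference was -0.02 ± 0.11 and at Il1b+3.8kb 0.11 ± 0.10.

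No member was called for the other families. For the 5 PI3K and mTOR inhibitors, 2.48% of all CREs were called after LPS and 4.23% after IL-4, and 2 members had an unadjusted p under 0.05 after LPS, beside 16.7% of all CREs. For the 5 MEK and ERK inhibitors and the 6 JAK inhibitors, limma called no CRE of the whole table after LPS. An unadjusted p under 0.05 was found at 4 and 0 of 27 members after LPS, beside 11497 and 1330 of all CREs (19.4% and 2.25%). At Il1rn+8.9kb, the MEK and ERK inhibitors ranged from -0.74 (Pimasertib) to -0.25 (Selumetinib), with GDC0994 at -0.57, Ulixertinib at -0.50 and Refametinib at -0.27. The JAK inhibitors ranged from -0.77 (Pacritinib) to -0.24 (Tofacitinib), and BMS911543, Momelotinib, Filgotinib and Ruxolitinib lay between -0.69 and -0.59. The PI3K and mTOR inhibitors ranged from -1.002 (AZD2014) to -0.50 (PF04691502), with Omipalisib at -0.76, Apitolisib at -0.65 and BGT226 at -0.62. At Il1a-0.9kb and Il1b+3.8kb the means of the other 3 families lay between -0.14 and 0.01. After IL-4 no member was called for any family, and 6, 3, 2 and 1 of 27 members had an unadjusted p under 0.05 for the p38, MEK and ERK, JAK, and PI3K and mTOR families. Over all CREs these shares were 13.4%, 4.6%, 3.54% and 19.8%.

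Pimasertib, a MEK inhibitor, was lower than its run after LPS at 5 of 27 members, beside 0.925% of all CREs. They were Il1a-6.8kb (-0.86), Il1a-10.2kb (-0.84), Il1a-18.5kb (-1.19) and Il1a-20.8kb (-0.85), with adjusted p between 0.0093 and 0.029, and Il1b+3.8kb (-0.53, adjusted p = 0.046). Against DMSO, Pimasertib was at -0.24 at Il1b+3.8kb and was not called. Refametinib, Selumetinib, GDC0994 and Ulixertinib, the rest of its family, had 0 CREs of the whole table called against their runs after LPS. PH797804 was lower at Il1a-20.8kb (-0.86), Il1b-9.7kb (-0.96), Il1rn-1.4kb (-1.18) and Il1rn+4.8kb (-1.86). In all it was lower at 7 of 27 members, beside 12% of all CREs. These values and counts include the shallow LPS library of PH797804. Values without that library are not given for these CREs, so how far the differences rest on it is not shown. After IL-4 the same compound was higher than its run at 15 of 27 members, 8 of them Il1a CREs, beside 39.2% of all CREs. The difference was 1.054 at Il1a-0.9kb and 0.84 at Il1b+3.8kb. The contrast of its IL-4 libraries was 7.26 to 11.2, and the part of this in the result was not tested.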

How the data were processed

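H3K27ac ChIP-seq was analysed from a table of 59190 CREs in 564 libraries. The deposited values are read counts that the authors normalized with a scaling factor from invariant peaks and rounded, so their unit is a score, and no count model was used. Before that, per the study's methods, reads were trimmed to 51 bases, aligned to mm10 and counted around the summits of accessible regions, and the submitters' processing notes name Bowtie and SAMtools, with versions not given in the sources used here. A further 1 column of values matched no sample and was not used.

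Groups came from the treatment labels for the CKIs and from the titles for DMSO. CREs were placed by RefSeq's GRCm38.p6. Values were taken as log2(value + 5), so fold changes of low CREs are understated, CREs with a mean of at least 10 were kept, and limma 3.58.1 in R 4.3.3 with a mean-variance trend was fitted over the whole table, with Benjamini-Hochberg adjustment over all CREs. Time courses used the DMSO libraries of the stimuli compared. The CKI difference came from an additive model of time and compound over UT and stimulated libraries, and the change of induction was stimulated minus UT in the CKI less the same in DMSO. Families were compared with the run as a factor. The fits, the motif search and the read spacing were tested on simulated data.

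Named were each gene's start CRE and its CREs with the largest LPS and IL-4 differences, the 3 lowest and 3 highest CKIs at each start CRE, the CKIs of 4 families, IMD0354 and Tanzisertib, the 5 most similar promoters, and the 3 largest changes in each direction of the pathway list. Other CREs, promoters and CKIs with values in the text were chosen after their values were seen. The members and lists were chosen with earlier results of these data known, and the 4 h against 30 min contrast was added after the data were seen. Alternatives were the pseudocount, the filter, quantile normalization, other references for the CKIs, a replicate block and leaving out libraries. Columns R1 and R2 of DMSO were not established as pairs.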

Additional observations from a re-analysis of the deposited data

Results flagged for a closer look

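Tofacitinib stood apart from the other 5 JAK inhibitors at Il1rn+8.9kb after LPS, at -0.24 against DMSO on the log2 scale, where the nearest was -0.59 and the lowest -0.77. Its gap was 0.65 of the range of the 6 compounds. Against the runs it did not stand apart, at 0.22 beside 0.16 for Filgotinib and 0.10 for BMS911543, and Pacritinib was lowest at -0.37. The 6 compounds were given at different doses. Of the 24 sets of values tested in this way it was the only one past the limit, and chance passes about 1 set in 20.

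The LPS effect differed between 4 h and 30 min, by limma's contrast of the DMSO libraries, at 7 of the CREs described in full. The log2 difference of 4 h minus 30 min was -0.58 at Il1a-6.8kb, -1.66 at Il1a-10.2kb, -1.58 at Il1b+10.6kb, -0.39 at Il1b+3.8kb and -1.18 at Il1b-18.9kb. It was 0.86 at Il1rn+4.8kb and 0.92 at Il1rn+8.9kb.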

How the results depend on the processing

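Over the alternatives, 24 to 27 members were called after LPS, 21 to 26 between LPS and IL-4, 18 to 22 between 4 h and 30 min of LPS and 7 to 17 after IL-4. With a mean of at least 50, the IL-4 count was 7 in place of 12, since fewer CREs were tested. With a log2 threshold of 0.5, 7 pathway promoters were called after IL-4 in place of 4. Leaving out each DMSO library in turn gave 26 to 27 members after LPS, 10 to 13 after IL-4, 24 to 26 between the stimuli and 18 to 22 between the times.

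The CKI counts moved most, and the cause was not tested. After LPS, 289 member pairs became 110 with quantile normalization, 39 against the mean of the 58 CKIs, 21 against the run and 442 with stimulated libraries only. After IL-4, 593 became 99, 56 and 18 under the first 3 of these. The count of changed LPS induction, 162, became 75 with a pseudocount of 20, 6 with quantile normalization, 16 against the 58 CKIs, 13 against the run, and 56 to 82 without a DMSO replicate. That of IL-4, 8, became 3, 2 and 5 with a pseudocount of 20, quantile normalization and the run, and 2 to 3 without a DMSO replicate. The families' count after LPS, 1, became 0 without the run factor or with the induction as the profile, 3 with a pseudocount of 20 or without the shallow PH797804 library, and 0 to 4 leaving out single CKIs; after IL-4 it was 0 to 1.

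Of the named pairs of CKI and start CRE, 16 of 26 at Il1a-0.9kb, 15 of 25 at Il1b+3.8kb and 18 of 26 at Il1rn+8.9kb changed sign under some alternative. Those called as reported or under the alternative were AZD2014 at Il1b+3.8kb with quantile normalization (0.55) and 10 CKIs at Il1rn+8.9kb. The latter turned against the mean of the 58 CKIs for Talmapimod (0.0011), GDC0994 (0.012), Ulixertinib (0.084), PF04691502 (0.083) and Tanzisertib (0.029), and against the run for GDC0994 (0.093), Ulixertinib (0.15), BMS911543 (0.10), Filgotinib (0.16), Apitolisib (0.0089), BGT226 (0.020), Omipalisib (0.032) and Tanzisertib (0.11). The p38 difference there was 0.066 with the induction as the profile.

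With the replicate block, 26, 12, 25 and 22 members were called after LPS, after IL-4, between the stimuli and between the times, 20 and 4 pathway promoters, and 245 CKI pairs after LPS, with 161 and 8 for the inductions by LPS and IL-4, and no count moved by over 1.5 times. Deviations of same-numbered DMSO libraries correlated at -0.087 to 0.066 over 36 pairs of groups. No shared deviation by number was thus seen, which cannot exclude a shared animal or culture. Most CKI groups had 1 library, which limits single compounds.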
